A study of Mus musculus with 157 samples.

Results

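The genes Meis1, Meis2, Meis3, Pbx2, Pbx3, Pbx4, Pknox1 and Pknox2 encode partners of the Hox proteins, and RNA polymerase II (Pol II) on them was followed in mouse embryonic stem cells over 72 h of retinoic acid (RA). They were taken from the deposited Pol II tables by gene symbol, as 8 of 23643 to 23887 genes per table. Each table listed 21 transcripts of these 8 genes, and the transcript with the highest mean raw count stood for its gene. All 8 passed the filter on low counts in all 4 tables.

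The cells were wildtype E14, an embryonic stem cell line, kept on gelatin in serum with leukemia inhibitory factor, the cytokine that holds the undifferentiated state. They were given 1 µM RA for 2, 4, 6, 24, 48 or 72 h, and untreated cells are the 0 h group. Pol II was precipitated with an antibody labelled NTD, taken here as total Pol II, with one against its Ser5-phosphorylated form (Ser5p) and with one against its Ser2-phosphorylated form (Ser2p). NTD had 17 libraries, with 2 at 0, 2, 24 and 72 h and 3 at 4, 6 and 48 h. Ser5p and Ser2p had 18 each, with 3 at 2 h. With each antibody the 0 h libraries were replicates 1 and 4 and the 24 h libraries replicates 2 and 3. The comparison of 24 h with 0 h thus shares no replicate number, so time and replicate number cannot be told apart in it. For NTD and Ser5p the reads counted lay up to 1 kb before or after the transcription start (TSS), and for NTD and Ser2p they lay over the gene body. E14 is 1 line, and the labels do not say that replicates were separate cultures, so each p-value measures the spread between these libraries, which may be technical.

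Meis, Pbx and Pknox proteins are homeodomain factors of the TALE class, which carry a loop of extra amino acids between helices of the homeodomain. Pbx proteins bind DNA together with Hox proteins and raise their selectivity, while Meis and Pknox proteins pair with Pbx, hold it in the nucleus and can join the Hox complex. RA activates the anterior Hox genes, and in vertebrate limb and hindbrain Meis genes are known to respond to it. Initiating Pol II carries Ser5 phosphorylation near the promoter, and elongating Pol II carries Ser2 phosphorylation across the gene.

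Total counts per library were 1088159 to 3210580 reads at the TSS with NTD and 1504737 to 3347830 with Ser5p. Over gene bodies they were 11684907 to 25696364 with NTD and 18045745 to 28745658 with Ser2p. A member's TSS window held 8 to 137 NTD reads or 11 to 144 Ser5p reads per library, and its body held 48 to 7399 NTD reads or 57 to 4671 Ser2p reads. NTD 0 h replicate 4 and 72 h replicate 3 stood apart at the TSS, with 96 and 92 transcripts over 4-fold above the median of the other libraries, and 72 h replicate 3 also over gene bodies, with 28. The summed TSS level of 6 embryonic stem cell markers with NTD was 143 to 221 CPM (counts scaled so that every library of a table has the same total) at 48 h, 187 to 238 CPM at 72 h and 475 to 618 CPM at 0 h. Fewer cells of a type and less Pol II per cell cannot be told apart in such bulk samples.

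Promoter sequences of 5 of the 8 genes were matched by symbol in RefSeq (build GRCm38.p6), from 250 bases before to 50 bases after the listed start. The promoters of Meis1 (chr11:19018920-19019219, minus strand), Meis2 (chr2:116064570-116064869, minus strand) and Pbx2 (chr17:34592009-34592308, plus strand) are shown because the clearest changes below fell on these genes. The Meis1 and Meis2 stretches lie wholly inside the gene spans given below. Meis2 has more than 1 start site, and it was not determined which of them this stretch belongs to. CpG dinucleotides are in capitals.
Meis1: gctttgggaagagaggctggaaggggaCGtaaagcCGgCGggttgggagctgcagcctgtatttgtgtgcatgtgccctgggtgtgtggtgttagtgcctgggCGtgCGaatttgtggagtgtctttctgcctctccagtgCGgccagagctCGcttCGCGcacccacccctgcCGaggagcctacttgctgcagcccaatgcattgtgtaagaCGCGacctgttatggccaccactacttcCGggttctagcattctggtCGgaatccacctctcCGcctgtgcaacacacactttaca
Meis2: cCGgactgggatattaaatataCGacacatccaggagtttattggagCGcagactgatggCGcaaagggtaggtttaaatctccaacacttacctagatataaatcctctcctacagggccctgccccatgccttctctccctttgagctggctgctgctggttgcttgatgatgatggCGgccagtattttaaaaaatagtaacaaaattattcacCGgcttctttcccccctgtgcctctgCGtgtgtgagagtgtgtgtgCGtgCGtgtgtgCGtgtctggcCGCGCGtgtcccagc
Pbx2: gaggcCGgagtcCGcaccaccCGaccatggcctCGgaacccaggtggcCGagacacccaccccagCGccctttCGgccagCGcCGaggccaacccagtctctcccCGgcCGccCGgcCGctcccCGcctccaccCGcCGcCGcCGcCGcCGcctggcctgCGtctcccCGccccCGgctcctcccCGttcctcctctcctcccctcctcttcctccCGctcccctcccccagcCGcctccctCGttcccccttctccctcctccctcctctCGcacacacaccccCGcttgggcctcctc
These stretches held 15, 13 and 29 CpG dinucleotides, while Meis3 held 21 and Pbx4 held 19, against a median of 7 over 32851 RefSeq promoters of the same length. The GC share of the Pbx2 promoter was 76%, against 58.3% for Meis1, 51% for Meis2, 66.7% for Meis3, 59.3% for Pbx4 and a median of 52.7% over all promoters. The hexamers bound by 1 RA receptor subunit were searched on both strands as AGGTCA or AGTTCA or GGGTCA or GGTTCA. In these 5 promoters 1 match was found, in Meis3 (AGTTCA, minus strand, 22 bases before the start), while 43.7% of all promoters held a match. Pairs of these hexamers in direct repeat with 1, 2 or 5 bases between them (0.222%, 0.268% and 0.0974% of all promoters) were not among these letters, nor were the Meis and Pknox hexamer TGACAG (19.2%) and the Pbx and Hox octamer TGATNNAT (8.85%).

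Total Pol II at the TSS was called higher on 4 of the 8 genes: Pbx2 from 6 h, Meis1 from 24 h, and Meis2 and Pknox2 from 48 h, and each was still called at 72 h. Only the 48 and 72 h calls of Meis1 and the 48 h call of Pbx2 held under every alternative way of processing. Each of the other calls was lost under at least 1, as given below. The 24 h calls set libraries against untreated ones with which they share no replicate number. A gene is written as called when its adjusted p was under 0.05 in edgeR's quasi-likelihood test, with Benjamini-Hochberg adjustment over all transcripts of the table. With NTD at the TSS, 1 member was called higher than at 0 h at 6 h (0.725% of all transcripts were called in either direction), 2 at 24 h (1.52%), 4 at 48 h (9.59%) and 4 at 72 h (9.13%), and none was called lower. At 2 h and 4 h the count was 0 (0.32% and 0.709%), with 1 member, Pbx2, at an unadjusted p under 0.05 at each time and 0 by DESeq2. The median log2 change of the 8 members was 0.87 at 48 h and 0.82 at 72 h, against -0.03 and -0.04 over all transcripts tested. A test over all times together called 4 members, Meis1, Meis2, Pbx2 and Pknox2 (14.9% of all transcripts).

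**Figure D1:**
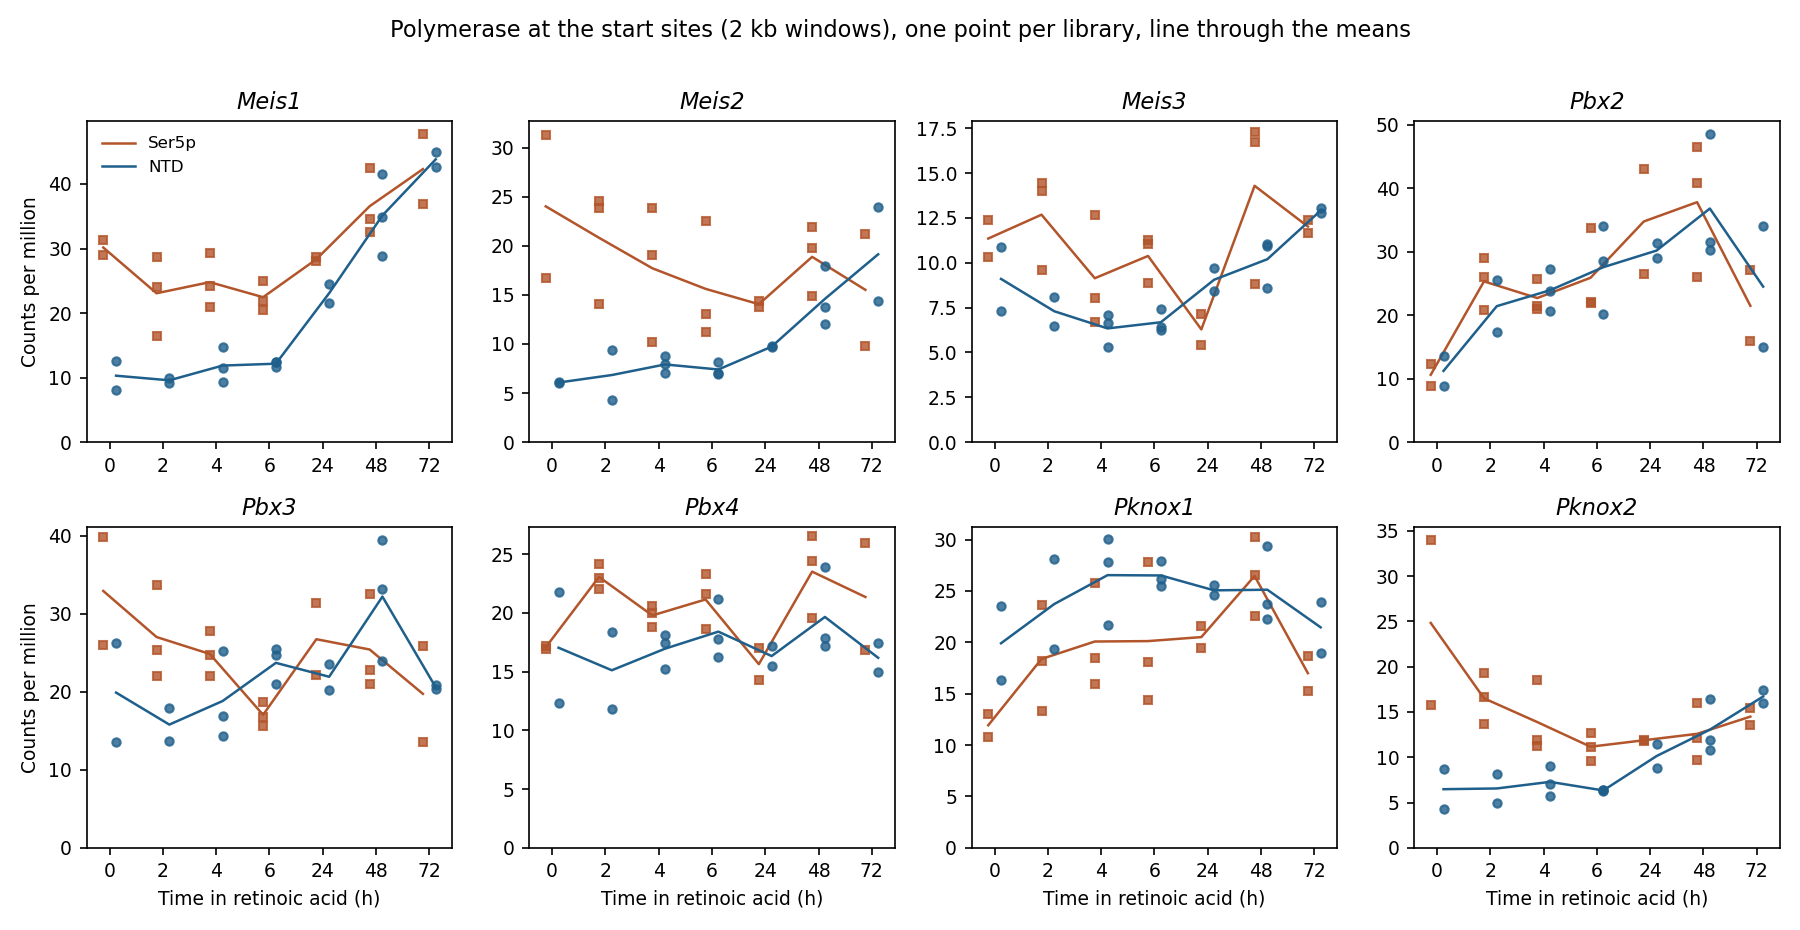
Pol II at the TSS of the 8 genes by hours of RA, with 1 point per library in CPM (Ser5p as squares, NTD as circles). NTD on Meis1 stood at 8.09 to 14.8 CPM up to 6 h and at 28.8 to 45.0 CPM at 48 and 72 h, whereas Ser5p on Meis1 was already at 29.0 and 31.3 CPM at 0 h.

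Meis1 (chr11:18880428-19019651, 139224 bp) encodes a Meis factor known for its part in blood stem cells and limb patterning. With NTD its TSS held 12.5 and 8.09 CPM at 0 h, 9.97 and 9.20 CPM at 2 h, 14.8, 9.27 and 11.5 CPM at 4 h, and 11.6, 12.5 and 12.4 CPM at 6 h. It then held 21.6 and 24.6 CPM at 24 h, 41.6, 28.8 and 34.9 CPM at 48 h, and 45.0 and 42.7 CPM at 72 h. Every library from 24 h on lay above all those of the first 4 times. The log2 change against 0 h was 1.27 ± 0.28 at 24 h (SE, adjusted p = 0.00595), 1.73 ± 0.26 at 48 h (3.65e-06) and 2.15 ± 0.26 at 72 h (1.15e-07), the last a 4.44-fold higher level. The 24 h call did not stand without NTD 0 h replicate 4 (log2 change 1.03, adjusted p = 0.193) or without 24 h replicate 3 (1.14, 0.19), whereas the 48 and 72 h calls held without any one library.

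Over the Meis1 gene body both antibodies were called higher from 48 h. NTD gave 115, 127 and 122 CPM at 48 h and 145 and 191 CPM at 72 h, against 73.6 and 74.2 CPM at 0 h, with no overlap. The log2 change was 0.71 ± 0.11 at 48 h (adjusted p = 0.00154) and 1.22 ± 0.12 at 72 h (0.000126). Ser2p gave 113, 123 and 128 CPM at 48 h and 129 and 156 CPM at 72 h, against 86.2 and 90.5 CPM at 0 h, also without overlap. Its log2 change was 0.47 ± 0.08 at 48 h (adjusted p = 0.00428) and 0.70 ± 0.08 at 72 h (0.000754). With 0 h replicate 1 left out, the 48 h Ser2p change was no longer called (0.42, adjusted p = 0.115).

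Ser5p at the Meis1 TSS was not called against 0 h at any time. It held 29.0 and 31.3 CPM at 0 h, 24.1, 16.4 and 28.7 CPM at 2 h, 29.2, 20.9 and 24.2 CPM at 4 h, 21.9, 20.6 and 24.9 CPM at 6 h, and 28.0 and 28.7 CPM at 24 h. At 48 h it held 34.6, 42.5 and 32.6 CPM and at 72 h 47.7 and 36.9 CPM. The late libraries lay above both 0 h libraries, yet neither log2 change against 0 h was called: 0.40 ± 0.22 at 48 h (adjusted p = 0.24) and 0.60 ± 0.23 at 72 h (0.0967). Against 6 h the 48 h level was called higher (0.72 ± 0.19, adjusted p = 0.0151), a call lost without 48 h replicate 2 (0.53, 0.167), with 6 h replicate 1 left out (0.70, 0.0733), with 6 h replicate 3 left out (0.68, 0.0596) or with the authors' scale factors (0.80, 0.0683). Among all genes, Meis1 stood at percentile 71.1 of Ser5p and 45.5 of NTD at 0 h, and at 76.5 of Ser5p and 74.3 of NTD at 48 h.

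Meis2 (chr2:115861264-116067537, 206274 bp) encodes a Meis factor known from the neural crest, heart and limb. Its tables held 6 transcripts with 2 count profiles, that is, more than 1 start site. At the more highly counted start, NTD gave 5.99 and 6.16 CPM at 0 h, 9.34 and 4.33 CPM at 2 h, 7.94, 8.73 and 7.08 CPM at 4 h, 6.98, 8.16 and 7.06 CPM at 6 h, 9.69 and 9.76 CPM at 24 h, 17.9, 12.1 and 13.8 CPM at 48 h, and 23.9 and 14.3 CPM at 72 h. All 48 and 72 h libraries lay above every earlier one. In log2 terms the change was 1.18 ± 0.33 at 48 h (adjusted p = 0.0134) and 1.58 ± 0.33 at 72 h (0.000825). The 48 h call was lost without NTD 0 h replicate 1 (1.13, 0.0885), 0 h replicate 4 (1.29, 0.103) and also without 48 h replicate 1 (1.04, 0.0633), and with DESeq2 (1.22, 0.0508).

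At the other Meis2 start site NTD was lower, at 10.8, 5.48 and 9.19 CPM at 48 h and 15.2 and 8.41 CPM at 72 h, against 3.27 and 5.39 CPM at 0 h. These libraries also lay above those at 0 h, but the log2 changes of 0.78 ± 0.49 (adjusted p = 0.378) and 1.32 ± 0.49 (0.0809) were not called. Ser5p at the main Meis2 start did not rise: it held 21.9, 19.8 and 14.9 CPM at 48 h and 21.2 and 9.81 CPM at 72 h, against 16.7 and 31.3 CPM at 0 h, and the ranges overlapped. Its log2 changes were -0.22 ± 0.30 (adjusted p = 0.687) and -0.52 ± 0.35 (0.401).

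Over the Meis2 body both antibodies rose, in values nearly equal for both transcripts. NTD gave 179, 192 and 190 CPM at 48 h and 214 and 293 CPM at 72 h, against 110 and 102 CPM at 0 h. Ser2p gave 172, 199 and 196 CPM at 48 h and 192 and 240 CPM at 72 h, against 127 and 130 CPM at 0 h. No library at 48 or 72 h overlapped 0 h. The log2 change was 0.81 ± 0.12 and 1.29 ± 0.13 with NTD (adjusted p = 0.00145 and 0.000126) and 0.56 ± 0.08 and 0.76 ± 0.09 with Ser2p (0.00221 and 0.000754). With 0 h replicate 1 left out, the 48 h Ser2p change missed the threshold (0.53, adjusted p = 0.074). In a fit of only the 0 and 72 h libraries, the 72 h body calls of Meis1 and Meis2 were lost with NTD (1.21 and 1.28, adjusted p = 0.209 for both) and with Ser2p (0.70 and 0.76, 0.335 for both). At 24 h the NTD body level was 147 and 151 CPM, above both 0 h libraries, with a log2 change of 0.49 ± 0.13 that was not called (adjusted p = 0.149).

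Meis3 (chr7:16174012-16186510, 12499 bp), a Meis gene linked to hindbrain patterning in frog and zebrafish, was not called at any time in any table. Its NTD level at the TSS was 8.61, 10.95 and 11.03 CPM at 48 h and 13.1 and 12.8 CPM at 72 h, against 10.9 and 7.32 CPM at 0 h. The 72 h pair lay above the 0 h pair, with a log2 change of 0.58 ± 0.32 (adjusted p = 0.309). Its body levels stayed between 3.08 and 6.08 CPM with NTD and between 3.65 and 5.52 CPM with Ser2p over all libraries, the lowest level per length of the 8 genes at 0, 48 and 72 h.

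Pbx2 (chr17:34592259-34597400, 5142 bp) encodes a broadly expressed Pbx factor whose loss alone is tolerated in mice. Its TSS level with NTD was 13.6 and 8.86 CPM at 0 h, 25.5 and 17.3 CPM at 2 h, 20.6, 27.3 and 23.9 CPM at 4 h, and 28.5, 34.1 and 20.1 CPM at 6 h. It was 29.1 and 31.3 CPM at 24 h, 31.6, 48.5 and 30.3 CPM at 48 h, and 34.1 and 14.9 CPM at 72 h. Every treated library, from 2 h on, lay above both untreated ones. In log2 terms the change was 0.91 ± 0.34 at 2 h and 1.15 ± 0.31 at 4 h, not called (adjusted p = 0.863 and 0.0629), then 1.37 ± 0.30 at 6 h (0.00876), 1.53 ± 0.31 at 24 h (0.00369), 1.77 ± 0.30 at 48 h (2.9e-05) and 1.05 ± 0.33 at 72 h (0.0355). Without NTD 0 h replicate 4 the 6, 24 and 72 h calls were lost (1.10, 1.29 and 0.80, adjusted p = 0.522, 0.15 and 0.311), and the 48 h call was kept. The 6 h call was also lost without 6 h replicate 3 (1.16, 0.105), the 24 h call without 24 h replicate 3 (1.44, 0.119) and the 72 h call without 72 h replicate 1 (0.61, 0.328). DESeq2, the authors' scale factors and a fit of only these 2 times also left the 72 h change uncalled (adjusted p = 0.0564, 0.0692 and 0.0516).

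Ser5p on Pbx2 was also higher after RA. Its libraries carry the same times and replicate numbers as those of NTD, apart from the further library at 2 h. The labels do not say whether both antibodies were used on the same samples, so the Ser5p levels may not be independent of those with NTD. It was 8.84 and 12.4 CPM at 0 h, 20.9, 26.1 and 29.1 CPM at 2 h, 21.4, 20.9 and 25.8 CPM at 4 h, 21.9, 33.8 and 22.1 CPM at 6 h, 26.5 and 43.0 CPM at 24 h, 46.5, 40.8 and 26.1 CPM at 48 h, and 27.1 and 15.9 CPM at 72 h. Again every treated library exceeded both untreated ones. The log2 change was 1.38 ± 0.31 at 2 h, 1.17 ± 0.32 at 4 h and 1.40 ± 0.31 at 6 h, each with an adjusted p above the threshold (0.13, 0.25 and 0.0624). It was called at 24 h (1.97 ± 0.32, adjusted p = 0.00024), 48 h (1.94 ± 0.30, 3.44e-05) and 72 h (1.13 ± 0.35, 0.0335). The 24 h call was lost without 24 h replicate 3 (1.49, 0.138) and had no adjusted p in DESeq2, and the 72 h call was lost without any one of its 4 libraries (0.88 to 1.36, with 0.25 as the highest adjusted p).

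Over the short Pbx2 body the counts were low. NTD gave 5.12, 10.2 and 5.22 CPM at 48 h, against 3.38 and 2.92 CPM at 0 h, and 48 h replicate 2 stood well above the other libraries. The log2 change of 1.14 ± 0.29 was called (adjusted p = 0.0416), and was lost without that library (0.71, 0.126), without 0 h replicate 1 (1.23, 0.144), without 0 h replicate 4 (1.05, 0.389) and in a fit of the 2 times alone (1.14, 0.144). Ser2p gave 4.35 and 5.45 CPM at 24 h, against 3.07 and 2.37 CPM at 0 h, without overlap. Its log2 change of 0.87 ± 0.24 was called (adjusted p = 0.035) and was lost without any one of the 4 libraries (0.68 to 1.05, with 0.298 as the highest adjusted p). Gpsm3 ends 505 bp before Pbx2 and Ager begins 60 bp past its end, and reads of a ChIP library carry no strand. At 48 h against 0 h, NTD at their own start sites was not called for Gpsm3 (-0.75 ± 0.32, adjusted p = 0.147) or Ager (0.18 ± 0.29, 0.796). Earlier both lay above 0 h, as Pbx2 did, also without a call. At 4 h NTD was at 0.79 ± 0.27 for Gpsm3 (adjusted p = 0.33) and 0.82 ± 0.27 for Ager (0.281). At 6 h these were 0.46 ± 0.27 (0.747) and 0.73 ± 0.27 (0.384). Ser5p at 4 h was at 0.45 ± 0.24 for Gpsm3 (0.701) and 0.97 ± 0.27 for Ager (0.25). At 24 h against 0 h, Ser2p over the Ager body was called higher (1.02 ± 0.33, adjusted p = 0.0497), in the same comparison as the Pbx2 Ser2p call. Their part in the Pbx2 counts was not tested.

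Pbx3 (chr2:34171457-34372045, 200589 bp), known for its part in the control of breathing in mice, was called in 1 comparison. Ser2p over its body was 155, 150 and 151 CPM at 48 h, against 137, 132 and 134 CPM at 6 h. The groups did not overlap, and the log2 change of 0.20 ± 0.05 was called (adjusted p = 0.0234). The call was lost without any one of 5 of the 6 libraries (0.19 to 0.22, with 0.0968 as the highest adjusted p), and kept without 48 h replicate 2. NTD at its TSS was 39.5, 33.2 and 23.9 CPM at 48 h, against 13.6 and 26.2 CPM at 0 h, with overlap (0.63 ± 0.26, adjusted p = 0.139). Ser5p at its TSS was 32.6, 22.7 and 20.9 CPM at 48 h, against 26.04 and 39.79 CPM at 0 h, also with overlap (-0.28 ± 0.24, adjusted p = 0.477).

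Pbx4 (chr8:69832476-69872292, 39817 bp), known mainly from testis, was called lower in 1 comparison. NTD over its body was 21.5, 23.5 and 22.8 CPM at 48 h, against 29.2, 30.2 and 30.6 CPM at 6 h, and the groups lay apart. In log2 terms the change was -0.39 ± 0.10 (adjusted p = 0.0202), and the call was lost without 48 h replicate 1 (-0.36, 0.0871), without 48 h replicate 3 (-0.39, 0.0636), without 6 h replicate 3 (-0.38, 0.0663) and without 6 h replicate 4 (-0.37, 0.076). With Ser2p the same change was -0.19 ± 0.08 (adjusted p = 0.182). At its TSS NTD was 17.2, 17.9 and 23.9 CPM at 48 h, against 21.8 and 12.3 CPM at 0 h, and the ranges overlapped.

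Pknox1 (chr17:31564722-31607693, 42972 bp), also called Prep1, encodes a Pbx partner needed for early mouse development. Ser5p at its TSS was 10.8 and 13.1 CPM at 0 h, 13.4, 23.6 and 18.1 CPM at 2 h, 18.5, 25.7 and 16.0 CPM at 4 h, 14.4, 18.1 and 27.8 CPM at 6 h, 21.6 and 19.4 CPM at 24 h, 22.6, 26.5 and 30.2 CPM at 48 h, and 15.3 and 18.7 CPM at 72 h. All treated libraries lay above the untreated pair. The change was called at 48 h (1.28 ± 0.31, adjusted p = 0.00412), a call lost without 0 h replicate 1 (1.16, 0.0633), and not at 24 h (0.98 ± 0.33, 0.0586) or 72 h (0.67 ± 0.35, 0.263). NTD at the same site was 22.2, 23.7 and 29.4 CPM at 48 h, against 16.3 and 23.5 CPM at 0 h, with overlap and no call (0.25 ± 0.25, adjusted p = 0.634).

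Over the Pknox1 body the late levels were lower than those at 6 h. NTD gave 29.1, 30.7 and 29.5 CPM at 48 h, against 36.2, 37.8 and 39.3 CPM at 6 h, and Ser2p gave 28.1, 28.4 and 26.5 CPM at 48 h, against 34.4, 39.1 and 35.7 CPM at 6 h. Neither antibody's groups overlapped. The log2 change was -0.32 ± 0.08 with NTD (adjusted p = 0.0147) and -0.36 ± 0.07 with Ser2p (0.00547). The Ser2p call held without any one library. The NTD call was lost without 48 h replicate 1 (-0.31, 0.0632), without 48 h replicate 3 (-0.32, 0.0578) and without 6 h replicate 4 (-0.29, 0.0727).

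Pknox2 (chr9:36890979-37147342, 256364 bp), the less studied paralog of Pknox1, was called higher with NTD and lower with Ser5p at its TSS, and both calls rested on single libraries. NTD was 8.71 and 4.24 CPM at 0 h, 4.98 and 8.12 CPM at 2 h, 9, 7.09 and 5.75 CPM at 4 h, 6.40, 6.24 and 6.36 CPM at 6 h, 8.81 and 11.5 CPM at 24 h, 10.8, 16.4 and 11.9 CPM at 48 h, and 15.9 and 17.4 CPM at 72 h. The 48 and 72 h libraries lay above those at 0 h. In log2 terms the change was 1.12 ± 0.34 at 48 h (adjusted p = 0.0261) and 1.49 ± 0.34 at 72 h (0.00238). Without NTD 0 h replicate 4 both calls were lost (0.71, 0.437 and 1.07, 0.148), as was the 48 h call without 48 h replicate 2 (0.77, 0.286) and with DESeq2 (1.11, 0.103), and the 72 h call without 72 h replicate 3 (1.28, 0.106).

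Ser5p on Pknox2 was 15.7 and 33.9 CPM at 0 h, 19.2, 13.6 and 16.6 CPM at 2 h, 18.5, 11.3 and 11.9 CPM at 4 h, 11.2, 12.7 and 9.59 CPM at 6 h, 11.8 and 11.9 CPM at 24 h, 15.9, 9.68 and 12.1 CPM at 48 h, and 13.6 and 15.4 CPM at 72 h. One untreated library, replicate 4, was higher than all others, and replicate 1 overlapped the 48 h range. The 48 h change of -0.87 ± 0.29 was called (adjusted p = 0.0371) and was -0.26 without that library (adjusted p = 0.769). It was also lost without 48 h replicate 2 (-0.75, 0.158) or 48 h replicate 3 (-0.86, 0.0993), with DESeq2 (-0.86, 0.0819) and with the authors' scale factors (-0.58, 0.164). Ser5p 0 h replicate 4 was higher than 0 h replicate 1 on 7 of the 8 genes, Pbx4 being the exception.

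With Ser5p at the TSS, 1 member was called at 24 h (6.73% of all transcripts), 3 at 48 h (2 higher and 1 lower, 12.2%) and 1 at 72 h (8.97%), and the test over all times called Meis1 and Pbx2 (14.5%). At 2, 4 and 6 h no member was called (0.0305%, 0.0153% and 0.0549%), with 3, 3 and 4 members at an unadjusted p under 0.05 and 0 by DESeq2. Over gene bodies with NTD, 3 members were called higher at 48 h (3.75%) and 2 at 72 h (4.52%), and 5 over all times together (7.81%): Meis1, Meis2, Pbx4, Pknox1 and Pknox2. None was called at 2, 4, 6 or 24 h (0%, 0.0188%, 0.0691% and 0.27%), with 0, 1, 1 and 3 at an unadjusted p under 0.05 and 0, 0, 0 and 1 by DESeq2. With Ser2p, 1 was called higher at 24 h (13%), 2 at 48 h (1.76%) and 2 at 72 h (1.62%), and 4 over all times together (7.53%): Meis1, Meis2, Pbx3 and Pknox1. None was called at 2, 4 or 6 h (0% of all transcripts at each), with 1, 1 and 2 at an unadjusted p under 0.05 and 0 by DESeq2. The shares in this paragraph count both directions. Called higher alone were 3.59% of all transcripts at 24 h and 5.1% at 72 h with Ser5p, and 1.72% at 48 h and 2.87% at 72 h with NTD over bodies. With Ser2p they were 9.02% at 24 h, 1.41% at 48 h and 1.28% at 72 h. The Ser2p count at 24 h, 1 of 8, was thus near the share of all transcripts called there.

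Compared per length with the authors' FPKM (fragments scaled to gene length and library size), NTD at 0 h was highest on Pknox1 (1.03 and 1.11), then Pbx4 (0.922 and 0.904), Pbx2 (0.960 and 0.852), Pbx3 (0.859 and 0.829), Meis1 (0.734 and 0.761), Meis2 (0.748 and 0.715), Pknox2 (0.709 and 0.639) and Meis3 (0.625 and 0.423). Pbx4, Pbx2 and Pbx3 overlapped their neighbours in this order, as did Meis1 and Meis2. At 72 h Meis2 (1.48 and 2.18), Meis1 (1.47 and 2.09) and Pbx2 (1.68 and 1.33) led with overlapping ranges, apart from Pbx3 (0.972 and 0.976) and the rest. Over all genes, Meis1 and Meis2 stood at percentiles 79.6 and 80.5 of NTD FPKM at 72 h and at 40.1 and 38.5 at 0 h.

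**Figure D2:**
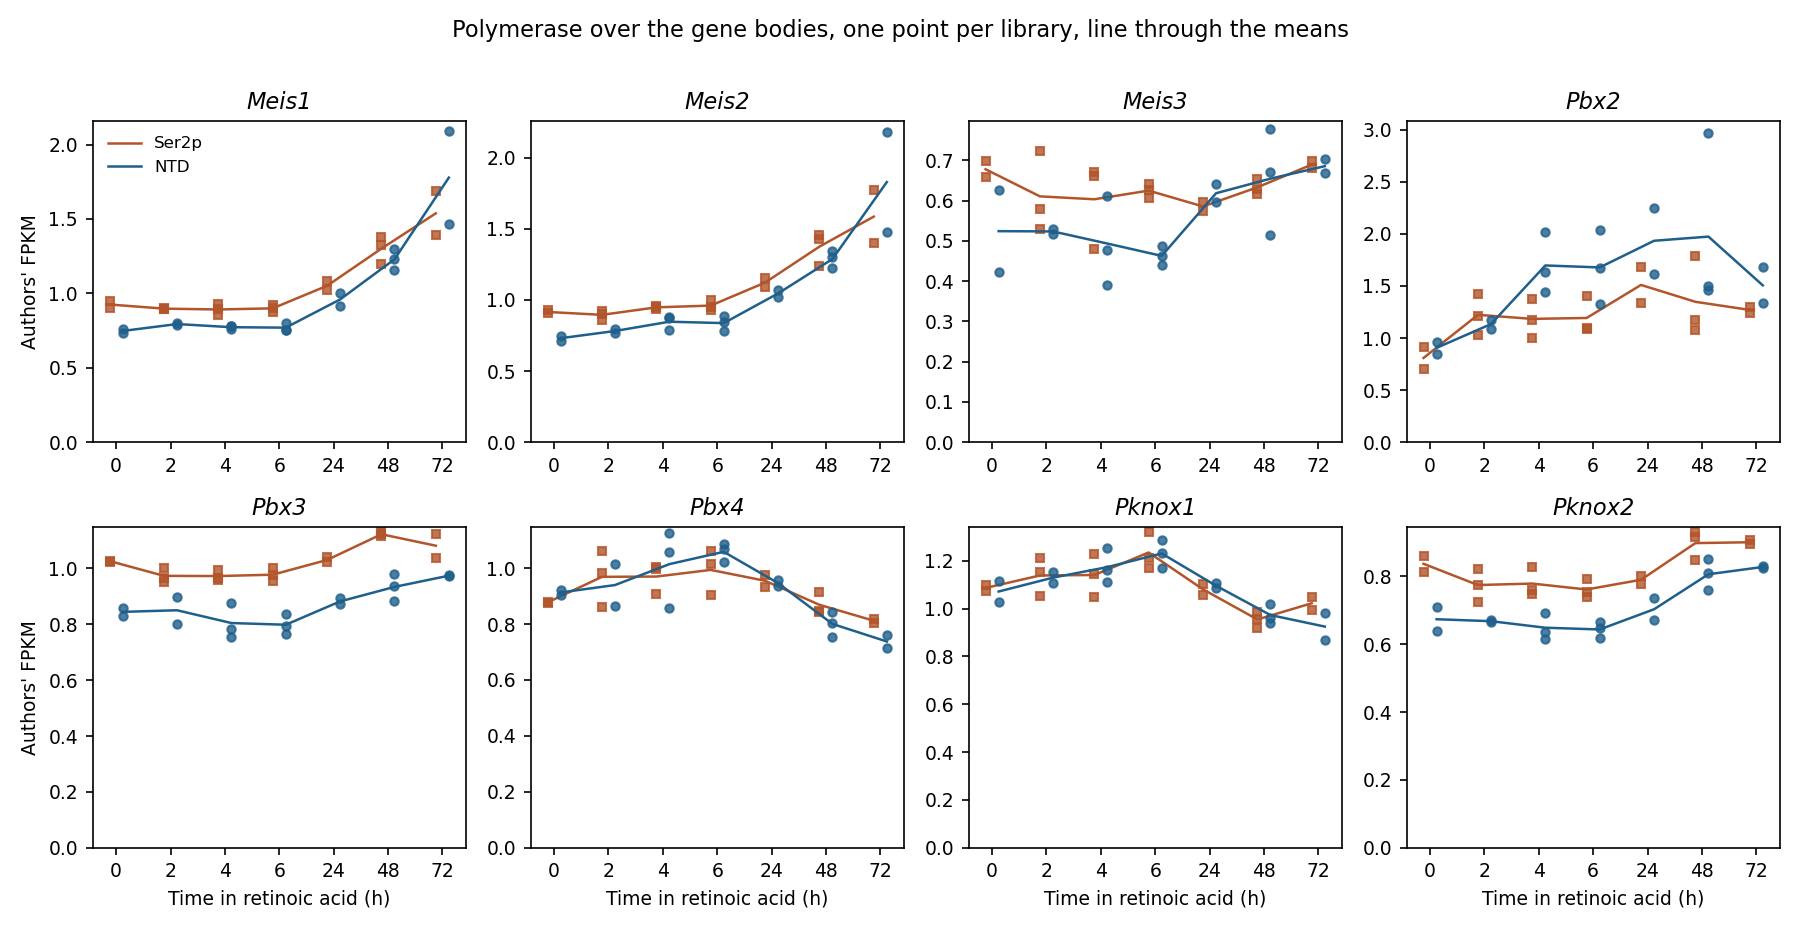
Pol II over the gene bodies by hours of RA as the authors' FPKM, with 1 point per library (Ser2p as squares, NTD as circles). Meis1 and Meis2 climbed with both antibodies, to 1.47 to 2.18 FPKM with NTD at 72 h, while Meis3 stayed at the bottom of the scale.

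The TSS windows share 1 width, so CPM can be set side by side there. At 0 h the NTD order ran from Pknox1 (16.3 and 23.5 CPM) to Meis2 (5.99 and 6.16 CPM), and each gene overlapped the next. At 72 h Meis1 (45.0 and 42.7 CPM) stood apart from the next gene, Pbx2 (34.1 and 14.9 CPM). With Ser5p at 0 h, the order ran from Pbx3 (26.04 and 39.79 CPM) over Meis1, Pknox2 and Meis2 (16.7 and 31.3 CPM) to Pbx4 (17 to 17.2 CPM), each overlapping the next. Below Pbx4 and apart from it lay Pknox1, Meis3 and Pbx2 (8.84 and 12.4 CPM). Pbx2 and Meis1 overlapped in NTD at 0 h (8.86 to 13.6 and 8.09 to 12.5 CPM) and lay apart in Ser5p.

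The comparison of 48 h with 6 h uses 3 libraries on each side in every table and none of the untreated libraries. With NTD at the TSS, 3 members were called higher (10.1% of all transcripts in either direction): Meis1 (1.40 ± 0.22, adjusted p = 1.09e-05), Pknox2 (1.02 ± 0.30, 0.0197) and Meis2 (0.85 ± 0.28, 0.0436). Pbx2, already raised at 6 h, was at 0.41 ± 0.23 (adjusted p = 0.293). With Ser5p, 1 was called (7.02%), Meis1. Over bodies 5 were called with NTD (3 higher and 2 lower, 9.76%) and 5 with Ser2p (4 higher and 1 lower, 5.43%). Meis1 rose by 0.69 ± 0.09 with NTD (0.000329) and 0.54 ± 0.07 with Ser2p (0.000254), Meis2 by 0.64 ± 0.11 (0.00141) and 0.52 ± 0.07 (0.000663), and Pknox2 by 0.34 ± 0.08 (0.0143) and 0.24 ± 0.07 (0.0384), while Pknox1 fell in both, as given above. The Meis1 and Meis2 body calls held without any one library. At the TSS the Meis2 call was lost without any one of the 6 libraries (0.71 to 0.96, with 0.187 as the highest adjusted p) and with DESeq2 (0.88, 0.113). The Pknox2 TSS call was lost without 48 h replicate 2 (0.68, 0.258) or any one 6 h library (1.00 to 1.04, adjusted p = 0.052 to 0.0665) and with DESeq2 (1.03, 0.0826). Its body calls were lost with NTD without 48 h replicate 1 (0.29, 0.0865), without 48 h replicate 3 (0.33, 0.0631), without 6 h replicate 3 (0.34, 0.0531) or 6 h replicate 4 (0.31, 0.0743). With Ser2p its call was lost without any one of 5 of the 6 libraries (0.21 to 0.26, with 0.141 as the highest adjusted p).

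**Figure D3:**
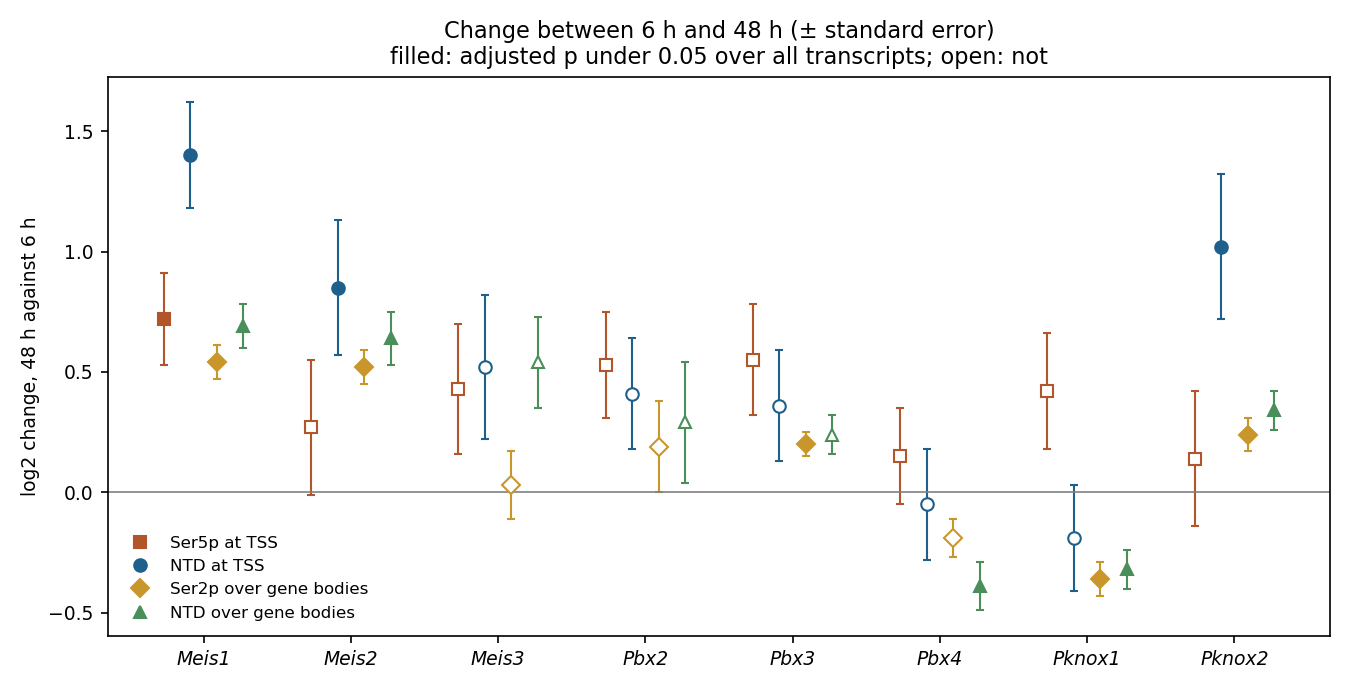
Log2 change of each gene at 48 h against 6 h in the 4 tables, with bars of 1 SE; filled points have an adjusted p under 0.05 in edgeR's quasi-likelihood test. Meis1 is filled in all 4 tables, Meis2 and Pknox2 in 3, and Pknox1 is below 0 over the body with both antibodies.

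Ser5p and NTD at the TSS changed unequally on some members. The change of Ser5p minus the change of NTD was tested in a fit of both antibodies. Libraries of the 2 antibodies with the same time and replicate number were not paired in it. At 48 h against 0 h the difference was called on 2 members (0.399% of all transcripts), Meis1 (-1.39 ± 0.33, adjusted p = 0.0344) and Pknox2 (-2.04 ± 0.46, 0.0284). At 72 h it was called on 1 (0.0884%), Meis1 (-1.60 ± 0.34, 0.032). Over all transcripts most called differences were negative too, with 126 negative and 5 positive at 48 h, and 29 and 0 at 72 h. Meis2 pointed the same way without a call, at -1.46 ± 0.48 (0.185) and -2.15 ± 0.51 (0.057), as did Pknox2 at 72 h (-2.13 ± 0.48, 0.05 after rounding). Pbx2 was at 0.10 ± 0.48 (adjusted p = 0.971) and 0.04 ± 0.52 (0.999), with SEs that leave room for differences either way, and Pknox1 was at 0.98 ± 0.40 at 48 h (0.421). At 48 h against 6 h no member was called (0% of all transcripts, 2 members at an unadjusted p under 0.05; DESeq2 was not run on this difference), with Meis1 at -0.74 ± 0.28.

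These calls were lost in fits that left out single libraries, among them the untreated replicate 4 of either antibody. A fit without that replicate keeps 1 untreated library of the antibody. Without Ser5p 0 h replicate 4 the Meis1 difference itself changed little, from -1.39 to -1.33 at 48 h and from -1.60 to -1.54 at 72 h. For Meis1 at 48 h the difference was -1.03 without NTD 0 h replicate 4 (adjusted p = 0.683) and -1.33 without Ser5p 0 h replicate 4 (0.601), and the call was kept in 3 of 10 fits that each left out 1 library (-1.64 to -1.03). For Pknox2 at 48 h it was -1.51 (0.601) and -1.43 (0.745) without the same libraries, and the call was kept in 5 of 10 (-2.53 to -1.43). For Meis1 at 72 h it was -1.24 (0.362) and -1.54 (0.793), and the call was kept in 2 of 8 (-1.85 to -1.24). The losses without other libraries had adjusted p-values of 0.0529 to 0.171.

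**Figure D4:**
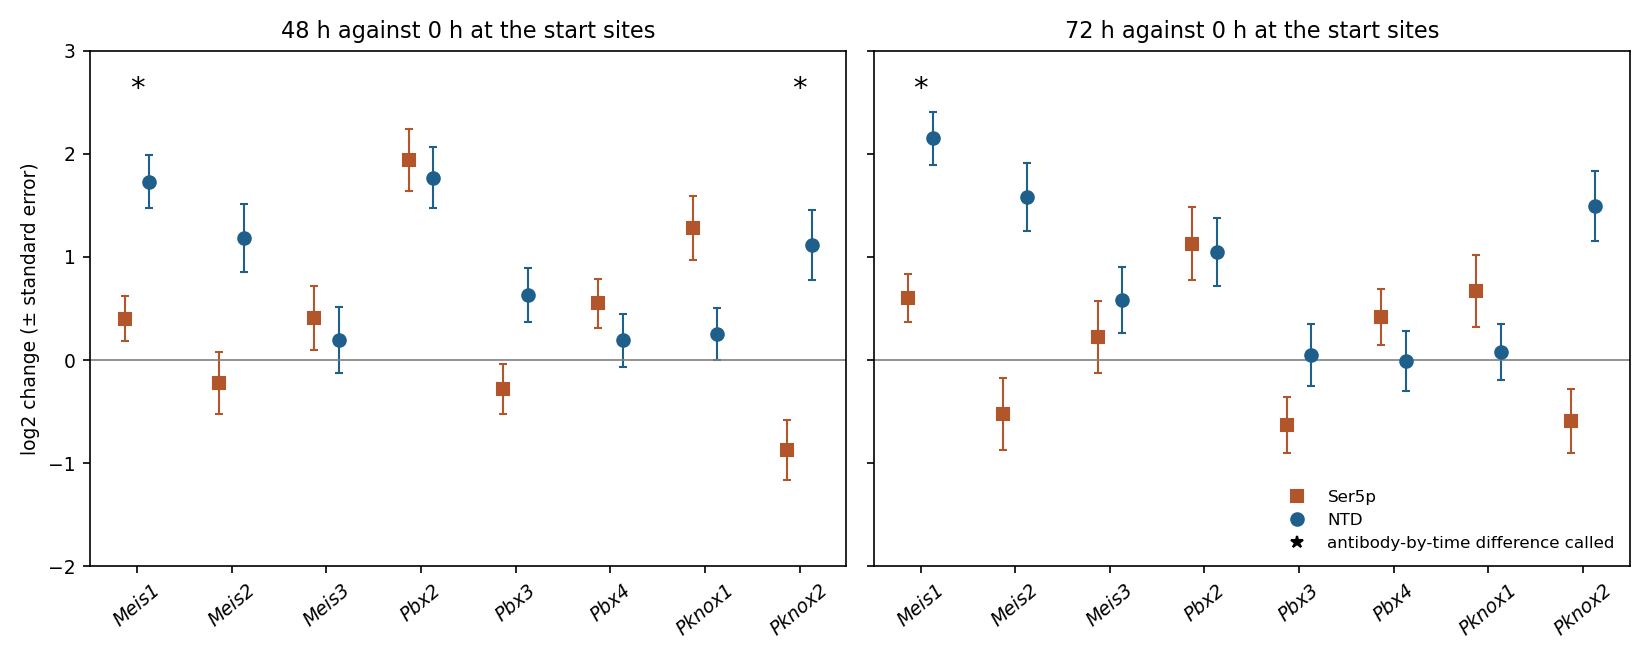
Log2 change at the TSS of each gene with Ser5p and with NTD, at 48 h and at 72 h against 0 h, with bars of 1 SE; a star marks a called difference between the antibodies. Meis1 at 48 h was at 0.40 with Ser5p and 1.73 with NTD, and Pbx2 at 1.94 with Ser5p and 1.77 with NTD.

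Over gene bodies no member differed between Ser2p and NTD by this test at 48 h or 72 h against 0 h (0% of all transcripts at each) or at 48 h against 6 h (0.00931%), with 0, 2 and 1 members at an unadjusted p under 0.05 and DESeq2 not run. The 72 h differences of Meis1 and Meis2 were -0.49 ± 0.13 and -0.50 ± 0.15 (adjusted p = 1 for both). The ratio of NTD over the body to NTD at the TSS, tested with limma on log2 values, was called on no member in any comparison, where 0.088% of all transcripts were called at 48 h, 0.0717% at 48 h against 6 h and 0% at 2, 4, 6, 24 and 72 h. In the order 2, 4, 6, 24, 48 and 72 h, 1, 0, 0, 1, 4 and 2 members had an unadjusted p under 0.05, and 3 had one at 48 h against 6 h. Meis1 was at -1.02 ± 0.25 at 48 h (adjusted p = 0.107) and Pknox2 at -1.14 ± 0.30 at 72 h (0.158).

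Of 15 Hox genes of paralog groups 1 to 5, NTD at 48 h against 6 h was called higher on 7 at the TSS and on 9 over the body, and none was lower. Of all transcripts, 3.6% were called higher there at the TSS and 3.77% over the body. At 48 h against 0 h, 6 were higher and 2 lower at the TSS, with Hoxa2 at 1.96 on the log2 scale, and the list median was 0.30 against -0.03 over all transcripts. In that comparison at the TSS, 4.67% of all transcripts were called higher and 4.92% lower with NTD, and 5.37% lower with Ser5p. Of 24 Hox genes of groups 6 to 13, Ser5p at the TSS was called lower on 23 at 48 h against 0 h (median -1.21), with Hoxd13 at -1.79 and Hoxc12 at -1.77. NTD was higher there on 3 of 23 tested. At 48 h against 6 h Ser5p was lower on 2 of the 24 (median -0.56), where 3.21% of all transcripts were called lower. The summed Ser5p level of these 24 genes was 620.5 and 1142 CPM in the 2 untreated libraries. Of 9 other TALE genes (Irx1 to Irx6, Tgif1, Tgif2 and Mkx), NTD at 48 h against 0 h was higher on 3 and lower on 1 (Irx3 at 1.52, Tgif1 at -1.10). Ser5p was lower there on 7 (Irx6 at -1.25, Irx3 at -0.98), and on 1 at 48 h against 6 h. Of 5 RA response genes, NTD at the TSS was higher on 4 at 48 h against 0 h, with Rarb, an RA receptor, at 2.90 and Cyp26a1, which degrades RA, at 2.42.

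At 72 h against 0 h, NTD at the TSS was called higher on 4 of 6 primitive endoderm markers (Col4a1 at 2.07, Sox7 at 1.01), 1 of 5 neural markers (Nes at 1.48) and 1 of 5 fibroblast markers (Pdgfra at 1.40), and lower on 4 of 6 stem cell markers (Tdgf1 at -2.98, Pou5f1 at -1.44), where 5.66% of all transcripts were called higher and 3.47% lower. Ser5p at the TSS was called higher on none of the endoderm, neural or fibroblast markers at 72 h, and lower on 2, 1 and 0 of them. With NTD at the TSS the summed endoderm level was 90 to 136 CPM at 48 h, 94 to 224 CPM at 72 h and 65.3 to 68.2 CPM at 0 h. With Ser5p it was 96 to 168 CPM at 48 h, 92.5 to 200 CPM at 72 h and 145 to 256 CPM at 0 h. No marker was at 0 reads in any group. The part of these cells in the late levels of Meis1, Meis2 and Pknox2 was not tested.

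Of the members called over all times with Ser2p, Meis1 was most like Peg3 (Pearson r = 0.99), Gpc3 (0.98) and Tcf12 (0.97) across 18 Ser2p libraries, among 18946 genes. Meis2 was most like Tcf12 (0.98), Peg3 (0.97) and Cflar (0.96), so 2 of the 3 genes were shared. Pbx3 was most like Rnf130 (0.94), Psd3 (0.93) and Nova1 (0.92), and Pknox1 like Pld3, Slc28a1 and Fntb (0.91 each). These correlations are descriptions over libraries that share the time course, with no test.

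In the authors' deposited table, the log2 changes of NTD at the TSS were smaller in size than those above: 1.01 at 48 h (adjusted p = 0.00132) and 1.33 at 72 h (4.7e-05) for Meis1, and 0.52 at 48 h (0.0443) and 0.06 at 72 h (0.252) for Pbx2. At 24 h, where both genes were called above, the deposited changes were 0.59 for Meis1 (adjusted p = 0.757) and 0.35 for Pbx2. Neither had a deposited adjusted p under 0.05 at that time. The authors' deposited table gave the first time of increase at the TSS with NTD as 6 h for Pbx2, 48 h for Meis1 and 72 h for Meis2, and over the body as 48 h for Meis1 and Meis2 with both antibodies. The deposited adjusted p was above the 0.05 used here for Pbx2 at 6 h (0.41, 0.0565) and Meis2 at 72 h (0.84, 0.0536) at the TSS. With Ser5p at the TSS, the authors' deposited table gave a time of increase of 48 h for Pbx2 and of 72 h for Meis1, whose change there was 0.64 at 72 h (adjusted p = 0.084). For Pknox2 with NTD at the TSS the authors' deposited table gave 0.45 at 48 h and 0.77 at 72 h (adjusted p = 0.171), with no time of increase.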

How the data were processed

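The authors' deposited tables gave, per RefSeq transcript, raw read counts of 53 libraries. Another 104 of the 157 labelled samples, of other marks and controls, were not analysed here, nor were 14 columns of per-group or per-sample values. Per the labels, tracks used uniquely mapped reads without duplicates. Per the submitters' processing notes, Bowtie2, SAMtools, MACS2 and DESeq2 and the builds mm10 and dm6 were used, without versions or roles. Counting tool, gene body definition and spike-in use: not given in the sources used here. The authors also deposited normalized signal values (count times 1 factor per library, used here only for those factors), FPKM over gene bodies, their own log2 changes and adjusted p-values, and a time of increase.

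Raw counts were analysed with edgeR 4.0.16 (R 4.3.3) by the quasi-likelihood test, with TMM scaling and filterByExpr, 1 fit per table over all times, threshold 0.05. The tables held 33687, 33746, 33968 and 33985 transcripts (NTD and Ser5p at the TSS, NTD and Ser2p over bodies), of which 31868, 32774, 31843 and 32123 were tested. Rows with an accession but no symbol (80, 90, 104 and 106) held 0.065%, 0.0761%, 0.0168% and 0.0166% of reads and were kept in the fits. The biological coefficient of variation was 0.138, 0.141, 0.118 and 0.0899. CPM is a raw count scaled to the read total of its table, and an SE is the log2 change over the root of its F statistic. The ratio of body to TSS used limma 3.58.1 on log2 values with 0.5 CPM added. DESeq2 1.42.0, other scalings, no filter, a replicate block and the loss of each library were alternatives. The fits were tested on simulated data. All 3 antibodies are compared with 0 h groups of 2 libraries that the 6 time comparisons share.

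The 8 genes, gene lists and markers were chosen with earlier results of these data known. Of each list the 2 genes with the smallest adjusted p in the comparison described are named, and for members called over all times with Ser2p the 3 genes with the highest correlation. A gene that this rule names is not reported here. For Meis2 both transcripts are given where calls differ.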

Additional observations from a re-analysis of the deposited data

Results flagged for a closer look

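Meis1 at the TSS changed less with Ser5p than with NTD at 48 h against 0 h, by -1.39 on the log2 scale (SE 0.33, adjusted p = 0.0344), and at 72 h by -1.60 (SE 0.34, adjusted p = 0.032). On Pknox2 the Ser5p change minus the NTD change at 48 h was -2.04 (SE 0.46, adjusted p = 0.0284), with Ser5p at -0.87 and NTD at 1.12. Each is marked because the difference between the antibodies was itself called. The direction was the same in every fit that left out 1 library, and the calls were kept in 3 of 10, 2 of 8 and 5 of 10 of those fits.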

How the results depend on the processing

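Of 43 called values of the 8 genes, 12 kept their call under all alternatives run on them, and over 529 pairs of value and alternative 408 kept it, 121 lost it and 0 changed direction. The counts of genes called that moved by over 1.5 times are given here, and the cause was not tested. With only the 2 groups in the fit, NTD at the TSS had 1 at 4 h, Ser5p had 1 at 6 h and 2 at 24 h, NTD over bodies had 1 at 6 h, 3 at 24 h and 0 at 72 h, and Ser2p had 2 at 24 h, 1 at 48 h and 0 at 72 h. DESeq2 gave 2 at 48 h and 1 at 48 h against 6 h for NTD at the TSS, 0 at 24 h for Ser5p and 1 at 24 h for NTD over bodies. The authors' scale factors gave 1 at 6 h, 2 at 24 h and 0 at 48 h against 6 h for Ser5p, 3 over all times for NTD over bodies and 2 at 24 h for Ser2p.

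With the replicate number as a block the count was 1 at 24 h and 1 at 48 h against 6 h for NTD at the TSS, 1 at 2 h, 1 at 6 h, 2 at 72 h and 2 at 48 h against 6 h for Ser5p, 0 at 24 h and 2 over all times for Ser2p, and 3 at 72 h for the difference of Ser5p and NTD. The block ended the Pbx2 calls at 24 and 72 h with NTD at the TSS (1.13 and 0.83, adjusted p = 0.137 and 0.127), at 48 h with NTD over the body (0.78, 0.203) and at 24 h with Ser2p (0.64, 0.412). It also ended those of Pknox2 at 48 h with NTD and Ser5p at the TSS (0.84, 0.232 and -0.72, 0.177) and of Meis2 and Pknox2 at 48 h against 6 h with NTD at the TSS (0.85, 0.0719 and 0.83, 0.122), and it called Meis1 with Ser5p at 72 h. The numbers were not taken to pair the libraries, since not every same-numbered pair correlated over 0.1: correlations of deviations between same-numbered libraries ran from -0.19 to 0.35, -0.23 to 0.43, -0.44 to 0.62 and -0.47 to 0.61 in the 4 tables. Their medians of 0.11, 0.1, 0.19 and 0.06 stood above those of other pairs (-0.05, -0.03, -0.1 and -0.01), 18 of 32, 18 of 37, 26 of 32 and 17 of 37 were over 0.1, and 8 of 17, 13 of 18, 8 of 17 and 11 of 18 libraries correlated best with their own number.

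Leaving out 1 library at a time gave 0 to 1 at 4 h and 6 h, 0 to 2 at 24 h, 3 to 4 at 48 h, 2 to 4 at 72 h and 1 to 2 at 48 h against 6 h for NTD at the TSS. For Ser5p it gave 0 to 1 at 4 h, 0 to 2 at 6 h and 24 h, 0 to 1 at 72 h and at 48 h against 6 h, and 2 to 4 over all times. For NTD over bodies it gave 2 to 6 at 48 h against 6 h and over all times. For Ser2p it gave 0 at 24 h, 0 to 2 at 48 h, 3 to 5 at 48 h against 6 h and 2 to 5 over all times. The difference of Ser5p and NTD was called on 0 to 3 genes at 48 h and at 72 h, and that of Ser2p and NTD on 0 to 2 at 72 h. Without both NTD 0 h replicate 4 and 72 h replicate 3, chosen after seeing the data, NTD at the TSS had 0 at 6 h, 0 at 24 h, 3 at 48 h, 2 at 72 h and 3 at 48 h against 6 h. TSS windows held as few as 8 reads, which limits small changes there.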
